A study of Mus musculus with 8 samples.

Results

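The genes described are the killer cell lectin-like receptors Klrg1, Klrk1, Klrd1, Klrc1, Klrc2, Klrb1c, Klre1 and Klri2, and the signalling adaptors Tyrobp and Fcer1g. They were chosen by symbol. All 10 are among the 24303 genes measured by RNA-Seq, followed here over 4 conditions with 2 libraries each. All conditions started from naive P14 CD8+ T cells of mouse spleen, whose transgenic receptor recognises GP33, a peptide of LCMV, and all cells were activated on plates with anti-CD3 and anti-CD28 for 2 days and then kept with IL-2 and IL-15. Effector cells were taken on day 7 without a later rest, so they differed from both Acute conditions in culture day and rest. For its cytometry the paper labels day 7 Effector cells as stimulated for 7 days. The sample labels do not give the last stimulation of the Effector libraries. Acute-2d cells saw no peptide after the first activation and Acute-7d cells received GP33 until day 7, and both were rested until day 19. T_Dysf cells received GP33 until day 19 and TGF-β1 from day 7, so that at collection they were still stimulated while both Acute conditions were resting, and lasting stimulation and TGF-β1 cannot be told apart. The libraries were made from polyA RNA of sorted viable CD8+ cells. The labels give 2 biological replicates per condition and do not tie them to mice. The p-values measure the spread between these samples, which may be technical in conditions other than Acute-7d, whose replicates differed in Xist and Ddx3y and so came from mice of both sexes.

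The killer lectin receptors are known best from NK cells, and activated CD8 T cells can carry several of them beside the T cell receptor. CD94, the product of Klrd1, pairs with NKG2A (Klrc1), which carries an inhibitory motif, or with NKG2C (Klrc2), which signals through an adaptor and activates; both pairs read the nonclassical MHC molecule Qa-1. NKG2D (Klrk1) is an activating receptor for stress ligands, Klre1 pairs with an inhibitory partner (Klri1) or an activating one (Klri2), Klrb1c encodes NK1.1, and KLRG1 is an inhibitory receptor for cadherins that marks short-lived effector cells. The adaptors DAP12 (Tyrobp) and FcRγ (Fcer1g) carry the ITAM motif through which activating receptors without a signalling tail recruit kinases.

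The receptors other than Klrg1 lie together in the NK gene complex of chromosome 6 (build GRCm38), and Klrg1 lies at chr6:122270596-122282882. The genes run from Klrb1c (chr6:128778485-128789215) through Klre1 (chr6:129577905-129585827), Klrd1 (chr6:129591782-129598775), Klrk1 (chr6:129610323-129623864), Klrc2 (chr6:129647496-129660689) and Klrc1 (chr6:129666015-129678973) to Klri2 (chr6:129729041-129740484). Tyrobp is at chr7:30413760-30417585, next to Hcst, the gene of the NKG2D adaptor DAP10, at chr7:30417712-30419854, and Fcer1g is at chr1:171229572-171234365. RefSeq promoters (build GRCm38.p6, 250 bases before to 50 after a transcript start) were found for 6 of the 10 genes. Those of 5 genes are printed 5′ to 3′, because genes with unlike patterns over the conditions share a short motif there. Capitals mark the RUNX core TGTGGT or its reverse complement. The coordinates are, on the minus strand, chr6:129678924-129679223 for Klrc1, chr6:129660547-129660846 for Klrc2, chr6:129623815-129624114 for Klrk1, chr6:128788592-128788891 for Klrb1c and chr1:171234300-171234599 for Fcer1g.
Klrc1: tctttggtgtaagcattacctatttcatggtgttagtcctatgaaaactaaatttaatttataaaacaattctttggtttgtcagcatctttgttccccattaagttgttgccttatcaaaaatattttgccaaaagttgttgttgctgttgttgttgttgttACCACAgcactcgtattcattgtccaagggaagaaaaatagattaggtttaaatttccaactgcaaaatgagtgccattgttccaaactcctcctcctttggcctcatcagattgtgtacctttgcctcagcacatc
Klrc2: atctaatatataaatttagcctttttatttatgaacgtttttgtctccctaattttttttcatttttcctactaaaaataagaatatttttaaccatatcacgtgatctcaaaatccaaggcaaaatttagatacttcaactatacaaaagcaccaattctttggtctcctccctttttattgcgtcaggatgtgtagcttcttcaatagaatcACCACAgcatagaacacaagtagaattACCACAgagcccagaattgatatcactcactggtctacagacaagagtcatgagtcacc
Klrk1: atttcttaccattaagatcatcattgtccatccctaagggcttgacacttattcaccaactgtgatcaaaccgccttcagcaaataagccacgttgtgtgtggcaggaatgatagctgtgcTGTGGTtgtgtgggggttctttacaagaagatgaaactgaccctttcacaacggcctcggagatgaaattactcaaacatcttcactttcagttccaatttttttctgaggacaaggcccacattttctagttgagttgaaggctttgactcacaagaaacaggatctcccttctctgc
Klrb1c: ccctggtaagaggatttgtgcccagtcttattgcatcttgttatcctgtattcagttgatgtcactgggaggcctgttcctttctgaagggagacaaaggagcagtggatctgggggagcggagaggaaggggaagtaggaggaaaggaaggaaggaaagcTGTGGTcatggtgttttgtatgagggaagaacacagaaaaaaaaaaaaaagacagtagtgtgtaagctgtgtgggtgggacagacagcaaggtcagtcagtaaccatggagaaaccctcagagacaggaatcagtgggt
Fcer1g: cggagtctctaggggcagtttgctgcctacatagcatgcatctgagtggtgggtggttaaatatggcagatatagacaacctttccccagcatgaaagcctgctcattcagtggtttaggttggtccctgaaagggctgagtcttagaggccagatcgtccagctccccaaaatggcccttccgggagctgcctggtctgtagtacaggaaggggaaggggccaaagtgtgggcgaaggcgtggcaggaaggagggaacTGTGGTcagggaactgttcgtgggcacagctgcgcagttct

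The RUNX letters occurred in 7 of the 8 promoters of the 6 genes and in each gene at least once, against 16.8% of 32851 mouse promoters of that length. The 2 promoters of Klrc2 share 260 bases and the 2 of Klre1 share 227, so the 8 are not independent. The share is per promoter, and a gene with 2 promoters has more chances to hold the letters. In Klrc2 the core occurs at 2 places of the printed window. The other 3 motifs were also searched on both strands. The AP-1 letters TGANTCA were in the promoters of 2 genes, Klrk1 and Klrc2, against 7.81% of all promoters. The SMAD letters GTCTG were in those of 4 genes, against 49.6% of all promoters. The T-box letters AGGTGT were in none of the 6, against 13.7% of all promoters. No base belonged to more than 1 motif. These are letters in a window of 300 bases and were not tested as sites, and the same letters stand before genes that differed between conditions and before genes that did not.

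The values are normalized counts: read counts per gene that the authors divided by the size factor of each library. Reads on genes numbered from 19382147 to 24856195 per library, and 3 reads were worth between 2.59 and 3.35 normalized counts. The names of 3 libraries, both Effector replicates and Acute-7d replicate 1, carry the prefix RESUB. The same 3 libraries held Xist at no more than 115 normalized counts and Ddx3y at 1334 or more, against at least 21871 and at most 2.59 in the other 5. Both Effector libraries thus had the male pattern and the prefix, and both T_Dysf and both Acute-2d libraries had neither. Where Effector is set against T_Dysf or Acute-2d, condition cannot be told apart from sex, prefix or culture day in these libraries alone. Effector replicate 1 was above replicate 2 for all 10 genes, by between 1.28-fold (Fcer1g) and 4.52-fold (Klri2). All 12 genes of CD8 T cell identity were present in every condition, with a summed level between 222823 and 231742 in T_Dysf and between 117547 and 131928 elsewhere. Thy1 was the most abundant, with a mean of 68955 in T_Dysf and between 23280 and 29323 elsewhere. The 12 did not move together. Against Acute-7d, by the rule below, Cd3e, Cd3g and Thy1 were called higher and Cd5 and Cd2 lower, beside 5.57% of all genes called. A call required at least a 2-fold change and a Benjamini-Hochberg adjusted p under 0.05 in limma over all genes, fitted on log2(normalized count + 1).

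The receptor chains and adaptors other than Klrk1, Klrb1c and Klrg1 stood highest in T_Dysf. RNA came from bulk cells, in which fewer cells of a type and less RNA per cell cannot be told apart. Both T_Dysf libraries were above all 6 others for 7 of the 10 genes: Klrd1, Klrc1, Klrc2, Klre1, Klri2, Tyrobp and Fcer1g. Of all 24303 genes, 11.6% had that order. Klrg1 was the one gene with both T_Dysf libraries below all 6 others, an order that 12.0% of all genes had. For Klrk1 T_Dysf lay between Effector and Acute-7d without overlap, and for Klrb1c it overlapped with Effector and Acute-2d. The median log2 fold change of the 10 genes in T_Dysf was 1.37 against Acute-7d, 2.90 against Acute-2d and 1.60 against Effector, where the median of all genes was 0.

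**Figure D1:**
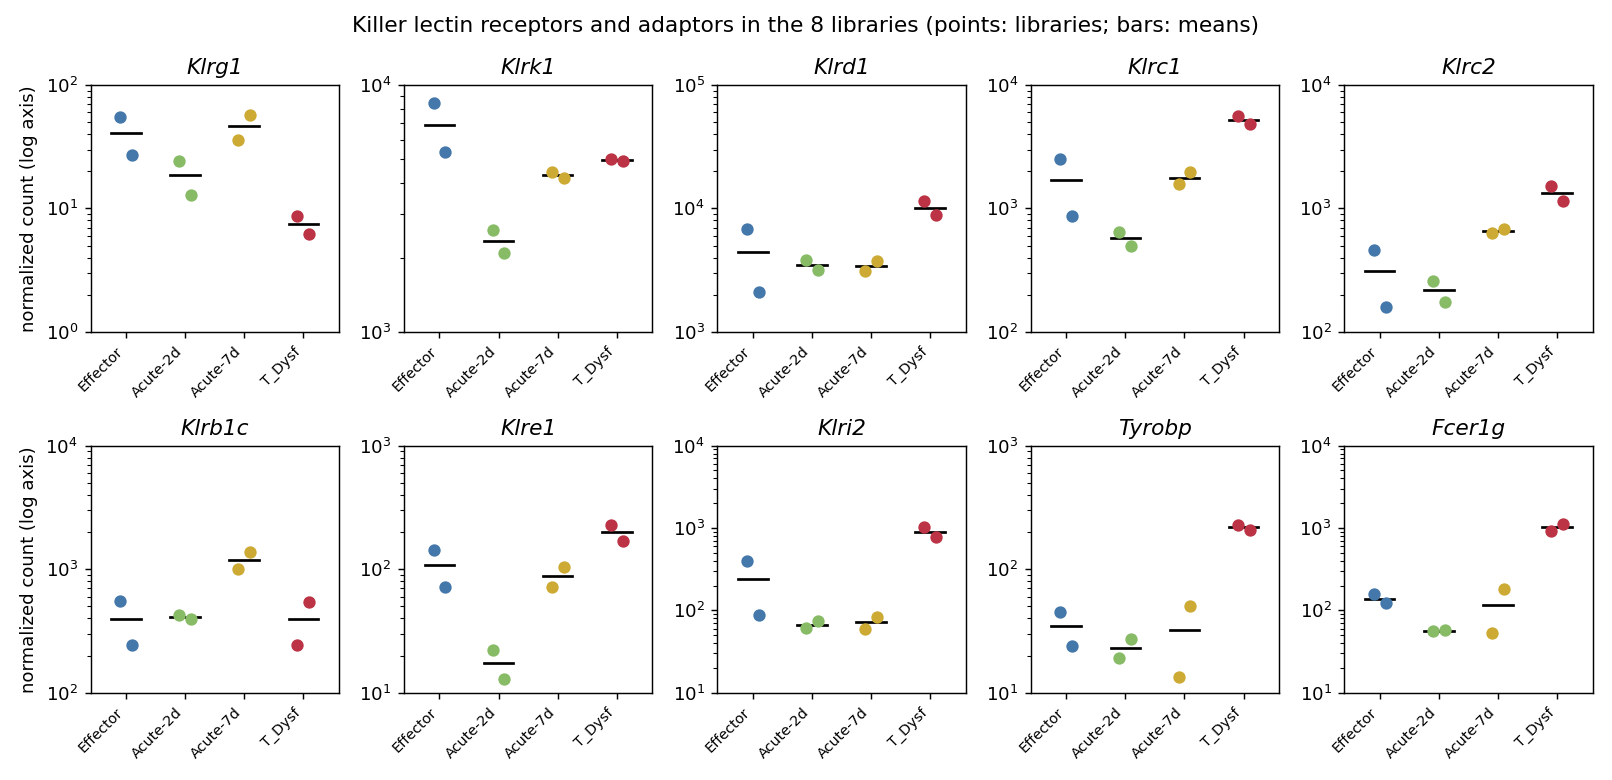
Normalized counts (vertical log axis, with its own range for each gene) of the 10 genes in the 4 conditions; points are libraries, 2 per condition, and bars are means. The T_Dysf points lie above all others in 7 panels and below all others in the Klrg1 panel, while in Klrb1c the Acute-7d points, at 1005 and 1384, are the highest.

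Against Acute-7d, which shared the first week of stimulation, 2 of the 10 genes rose in T_Dysf and none fell, with 5.57% of all genes called in either direction. Klri2 and Fcer1g were the 2. Against Acute-2d 5 genes rose (Klrc1, Klrc2, Klre1, Klri2 and Fcer1g) and none fell, with 7.35% of all genes called. Against Effector 1 gene rose (Fcer1g) and none fell, with 9.22% of all genes called. The Effector and T_Dysf libraries also differed in sex-linked transcripts, the RESUB prefix and culture day. All of these comparisons share the T_Dysf libraries. With 2 libraries per condition the calls depended on which genes entered the fit. The study's methods name a minimum of 50 for the highest library before normalization. The same minimum, set here on normalized counts, left 13175 genes, and all 10 genes passed it. Then 7 of them were called against Acute-7d (5 higher, and Klrg1 and Klrb1c lower) with 13.0% of those genes called, 8 against Acute-2d (all higher) with 15.1% called, and 7 against Effector (6 higher, and Klrg1 lower) with 19.2% called. Over all genes, by at least a 2-fold difference and an unadjusted p under 0.05, 7, 8 and 6 of the 10 passed against Acute-7d, Acute-2d and Effector, beside 13.1%, 14.5% and 16.7% of all genes.

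**Figure D2:**
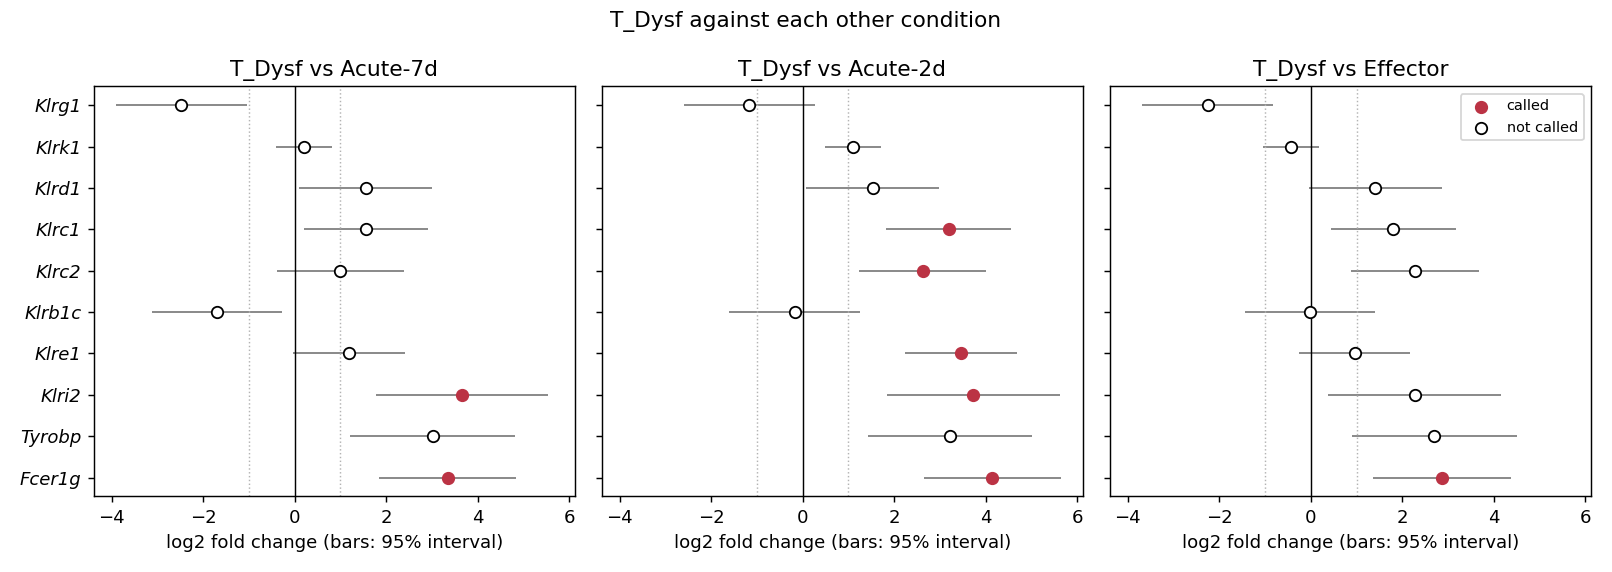
Log2 fold change of each gene in T_Dysf over Acute-7d, Acute-2d and Effector (horizontal axis); bars are 95% intervals from limma, filled points are called and dotted lines mark a 2-fold change. Fcer1g is filled in all 3 panels, and the Klrg1 points lie left of 0 in each.

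The CD94 and NKG2 chains were among the most abundant. In normalized counts, Klrd1 was at 11388 and 8829.7 in T_Dysf, 3138 and 3719.9 in Acute-7d, 3822 and 3151 in Acute-2d, and 6761 and 2122 in Effector. The T_Dysf libraries were the highest, and the Effector pair spanned both Acute conditions. Its log2 fold change in T_Dysf was 1.55 ± 0.56 (SE) against Acute-7d (limma adjusted p = 0.169; 0.0479 with the minimum of 50). Klrc1 was at 5552 and 4829 in T_Dysf, 1576 and 1974 in Acute-7d, 649 and 496 in Acute-2d, and 2532 and 867 in Effector. Both T_Dysf values exceeded every other library, and both Acute-7d values exceeded both of Acute-2d. Klrc1 rose 9.10-fold in T_Dysf over Acute-2d (log2 fold change 3.19 ± 0.52, limma adjusted p = 0.0254), and stood 1.55 ± 0.52 higher on the log2 scale than in Acute-7d, which was not called (adjusted p = 0.149; 0.0399 with the minimum of 50).

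Klrc2, the activating partner chain, was at 1525 and 1147 in T_Dysf, 636 and 688 in Acute-7d, 261 and 176 in Acute-2d, and 462 and 160.3 in Effector. The order of conditions was that of Klrc1, with Effector and Acute-2d overlapping. Klrc2 rose 6.15-fold over Acute-2d (log2 fold change 2.62 ± 0.54, limma adjusted p = 0.0444). The difference from Acute-7d was 0.999 on the log2 scale, with a 95% interval from -0.39 to 2.39. Of the windows of 50 bases in its transcripts, 29.2% are shared with Klrc3 and 16.4% with Klrc1, and 36.6% of those of Klrc1 are shared with Klrc2, so the authors' counting could have split reads among these genes and their separate values are uncertain. Klrc3 itself was low, at 63.6 and 25.4 in T_Dysf and at most 19.3 in the other 6 libraries. The ligand gene of these receptors, H2-T23 (Qa-1), was high in all conditions, at 7299 and 8741 in T_Dysf and between 8639 and 13182 elsewhere, and was not called in T_Dysf against any of them.

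Klre1 was at 229 and 169.9 in T_Dysf, 71.4 and 104 in Acute-7d, 22.1 and 12.95 in Acute-2d, and 143 and 71.2 in Effector. Acute-2d was the lowest condition, below every other library. Klre1 rose 11.03-fold in T_Dysf (log2 fold change 3.46 ± 0.47, limma adjusted p = 0.0160) and 5.69-fold in Effector (2.51 ± 0.47, adjusted p = 0.0320) over Acute-2d. Its activating partner Klri2 was at 1024 and 787 in T_Dysf, 59.1 and 83.8 in Acute-7d, 61.1 and 73.4 in Acute-2d, and 395 and 87.3 in Effector. Both Acute conditions overlapped, and T_Dysf stood above all. Klri2 rose 12.6-fold over Acute-7d (log2 fold change 3.65 ± 0.73, limma adjusted p = 0.0485) and 13.2-fold over Acute-2d (3.73 ± 0.73, adjusted p = 0.0394). The inhibitory partner Klri1 was at no more than 2.01 normalized counts in any library, under the worth of 3 reads.

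Both adaptors of the ITAM type were highest in T_Dysf. Fcer1g was at 924 and 1111 in T_Dysf, 53.6 and 182 in Acute-7d, 55.8 and 57.2 in Acute-2d, and 156 and 122 in Effector. Both T_Dysf libraries stood above all others, and the Acute-7d pair spanned the Acute-2d and Effector values. Fcer1g rose 10.2-fold over Acute-7d (log2 fold change 3.34 ± 0.58, limma adjusted p = 0.0352), 17.6-fold over Acute-2d (4.14 ± 0.58, adjusted p = 0.0171) and 7.28-fold over Effector (2.86 ± 0.58, adjusted p = 0.0367). Tyrobp was at 229.6 and 208 in T_Dysf, 13.4 and 50.5 in Acute-7d, 19.0 and 27.0 in Acute-2d, and 44.8 and 24.1 in Effector. The 3 other conditions overlapped one another. Its log2 fold change in T_Dysf was 3.01 ± 0.69 over Acute-7d (limma adjusted p = 0.0674), 3.22 ± 0.69 over Acute-2d (0.0505) and 2.70 ± 0.69 over Effector (0.0657), none of which was called. With the minimum of 50 the limma adjusted p of these was 0.0150, 0.00952 and 0.0153. The third adaptor, Hcst (DAP10), was at 1546 and 1342 in T_Dysf and between 933 and 1256 in both Acute conditions, and was called only against Effector (586 and 269; log2 fold change 1.86 ± 0.39, limma adjusted p = 0.0408). 

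Klrk1, the NKG2D gene, followed another order. It was at 8445 and 5333 in Effector, 5024 and 4936 in T_Dysf, 4437 and 4195 in Acute-7d, and 2582 and 2094 in Acute-2d. The conditions did not overlap, and Acute-2d was the lowest. Klrk1 rose 2.88-fold in Effector over Acute-2d (log2 fold change 1.53 ± 0.24, limma adjusted p = 0.0221). T_Dysf differed from Acute-7d by 0.21 ± 0.24 (adjusted p = 0.657), with a 95% interval of the log2 fold change from -0.41 to 0.82. Against Acute-2d the log2 fold change in T_Dysf was 1.10 ± 0.24 with an adjusted p of 0.0505, and 0.00878 with the minimum of 50.

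Klrb1c, the NK1.1 gene, was highest in Acute-7d. It was at 1005 and 1384 there, 430 and 393 in Acute-2d, 551 and 244 in Effector, and 243 and 544 in T_Dysf. Both Acute-7d libraries were above the other 6, which overlapped one another. The log2 fold change of T_Dysf against Acute-7d was -1.70 ± 0.55 (limma adjusted p = 0.139; 0.0367 with the minimum of 50) and that of Effector against Acute-7d was -1.68 ± 0.55 (adjusted p = 0.115). Of its transcript windows, 14.1% are shared with the overlapping gene Gm44511.

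Klrg1, the inhibitory receptor for cadherins, was low everywhere. Its normalized counts were 8.63 and 6.23 in T_Dysf, 35.7 and 57.6 in Acute-7d, 24.2 and 12.95 in Acute-2d, and 54.8 and 27.1 in Effector. The T_Dysf libraries were the lowest and near the worth of 3 reads. The log2 fold change was -2.47 ± 0.55 against Acute-7d (limma adjusted p = 0.0627) and -2.25 ± 0.55 against Effector (0.0587), and those adjusted p were 0.0231 and 0.0223 with the minimum of 50. The gene of its ligand E-cadherin, Cdh1, went the other way: it was at 12261 and 13187 in T_Dysf, 1920.1 and 1146 in Acute-7d, 819 and 1162 in Acute-2d, and 103 and 13.04 in Effector. Cdh1 rose in T_Dysf over Effector (log2 fold change 8.38 ± 0.97, limma adjusted p = 0.0107), and its log2 fold change over Acute-7d was 3.10 ± 0.97 (adjusted p = 0.129). Cdh1 was singled out after its values were seen.

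The conditions without TGF-β1 were also compared with one another. None of the 10 genes was called in Acute-7d against Acute-2d, where 0.169% of all genes were called by limma, and 4 (Klrc1, Klrc2, Klrb1c and Klre1) had at least a 2-fold difference with an unadjusted p under 0.05, which 3.74% of all genes had. All 4 were higher in Acute-7d, with log2 fold changes from 1.52 to 2.28. In Effector against Acute-2d 2 genes rose (Klrk1 and Klre1), with 8.78% of all genes called, and 3 passed by unadjusted p, as did 15.2% of all genes. The Effector and Acute-2d libraries also differed in sex-linked transcripts, the RESUB prefix and culture day. In Effector against Acute-7d limma called none of the 10 and 8.06% of all genes, and 1 gene (Klrb1c) had at least a 2-fold difference at an unadjusted p under 0.05, beside 14.5% of all genes.

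Per length, the gene with the highest level in T_Dysf was Klrd1, at 11295 ± 2021 normalized counts per kb of transcript (SD, n = 2). Klrc1 was at 2616 per kb of its longest transcript and 7678 per kb of its shortest, and Klrk1 at 1558 and 4887. Klrc2 was at 1863 and Fcer1g at 1509, followed by Tyrobp at 388, Klri2 at 232, Klre1 at 154, Klrb1c at 149.8 and Klrg1 at 5.25 per kb of the longest transcript. Which transcript was in use was not measured, so neighbours among Klrc1, Klrk1, Klrc2 and Fcer1g cannot be ordered. Hcst was at 3267 per kb, above both other adaptors.

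Of 5 ratios of partner chains, 3 had an adjusted p under 0.05, each of 0.0476. For these ratios, picked for their known pairing after values had been seen, the 8 libraries were compared by an exact permutation test over the 105 ways to split them into 4 pairs, with 0.00952 as its smallest possible p. Because of that choice, the p-values describe these libraries and are not an independent test. Klrc1 over Klrc2 was 5.48 and 5.41 in Effector, 3.64 and 4.21 in T_Dysf, 2.48 and 2.87 in Acute-7d, and 2.49 and 2.82 in Acute-2d (exact permutation p = 0.0286, adjusted over the 5 ratios 0.0476). Klrc1, the inhibitory chain, had more counts than Klrc2 in every library, and the ratio was highest in Effector. These counts are not divided by transcript length. Per kb of the longest transcript, Klrc2 was slightly above Klrc1 in Acute-2d (304 and 289) and in Acute-7d (923 and 894). Per kb of the shortest, Klrc1 was above Klrc2 in every condition, so which chain was more abundant cannot be told. Both genes share sequence, as given above.

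Klrd1 over the sum of Klrc1 and Klrc2 was 4.20 and 4.69 in Acute-2d, 2.26 and 2.07 in Effector, 1.61 and 1.48 in T_Dysf, and 1.42 and 1.398 in Acute-7d (exact permutation p = 0.00952, adjusted 0.0476). Acute-2d had the most CD94 counts for each NKG2 count, and the conditions did not overlap. Klrk1 over Hcst was 14.4 and 19.8 in Effector and between 1.71 and 3.85 in the other 6 libraries (exact permutation p = 0.0190, adjusted 0.0476); without Acute-7d replicate 2, or without T_Dysf replicate 1, the p was 0.0571. Klri2 over Klre1 was 4.48 and 4.63 in T_Dysf and 0.828 and 0.806 in Acute-7d, with 2.75 and 1.23 in Effector and 2.76 and 5.67 in Acute-2d (exact permutation p = 0.0476, adjusted 0.0595), and leaving out any 1 library gave p between 0.0571 and 0.190. Fcer1g over Tyrobp was between 2.12 and 5.34 and did not separate the conditions (exact permutation p = 0.105).

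**Figure D3:**
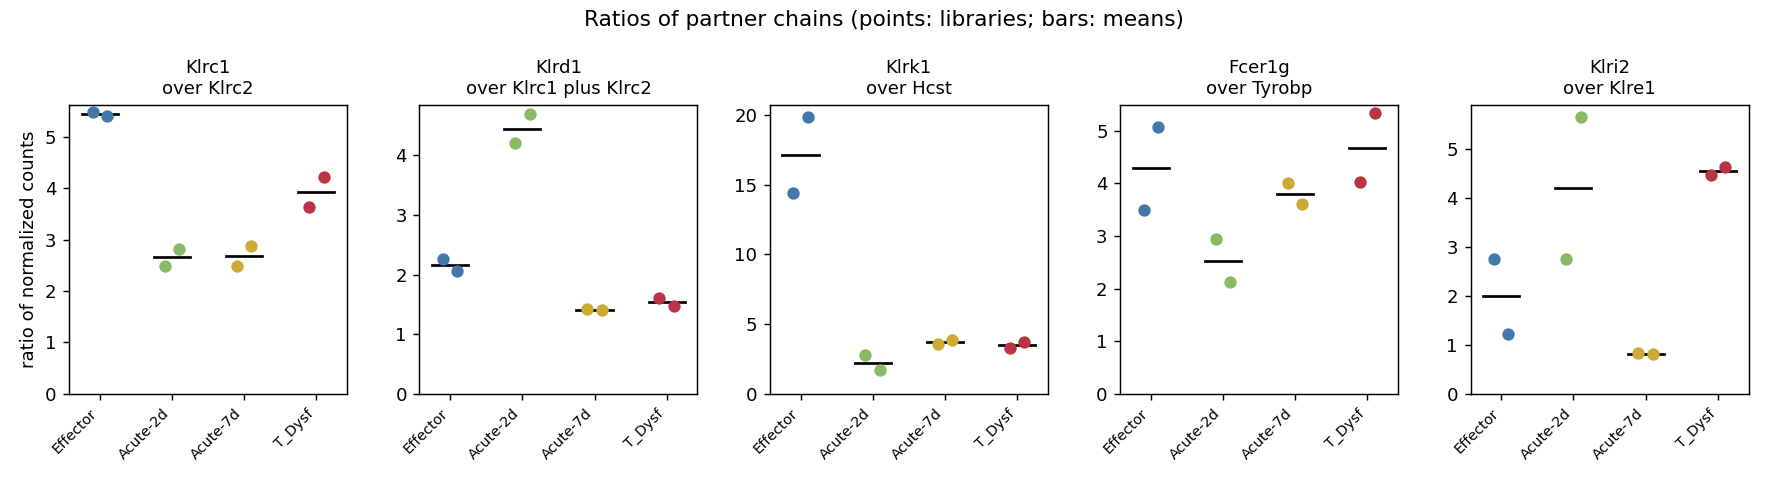
Ratios of normalized counts of partner chains (vertical axes from 0) in the 4 conditions; points are libraries, 2 per condition, and bars are means. Klrk1 over Hcst stands highest in Effector, at 14.4 and 19.8, and Klrd1 over Klrc1 plus Klrc2 in Acute-2d, at 4.20 and 4.69.

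The NK gene complex held entries that rose, fell or were not called. Between 128609227 and 131247362 on chromosome 6 the table holds 53 entries, of which 23 reached 50 normalized counts in some library. Of the 53, 7 were called in T_Dysf against Acute-7d, beside 5.57% of all genes. Klrb1, Clec2f, Clec12a, Klri2 and Klra5 rose, and Clec2i and Klrb1f fell. Clec2f was at no more than 6.48 normalized counts in any library and Klrb1 at no more than 14.2, so both calls rest on few reads. Against Acute-2d 12 were called (10 higher), beside 7.35% of all genes, and against Effector 11 (8 higher), beside 9.22%. The genes from Klre1 to Klra3, at the far end, all had positive log2 fold changes against Acute-7d among entries that reached 50 counts, from 0.21 (Klrk1) to 6.86 (Klra5), and both entries that fell lie nearer to Klrb1c. Outside that stretch Klrb1a (3.36) and Clec12a (7.19) were also positive, and of all 23 entries 18 were. A split by position was not tested.

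**Figure D4:**
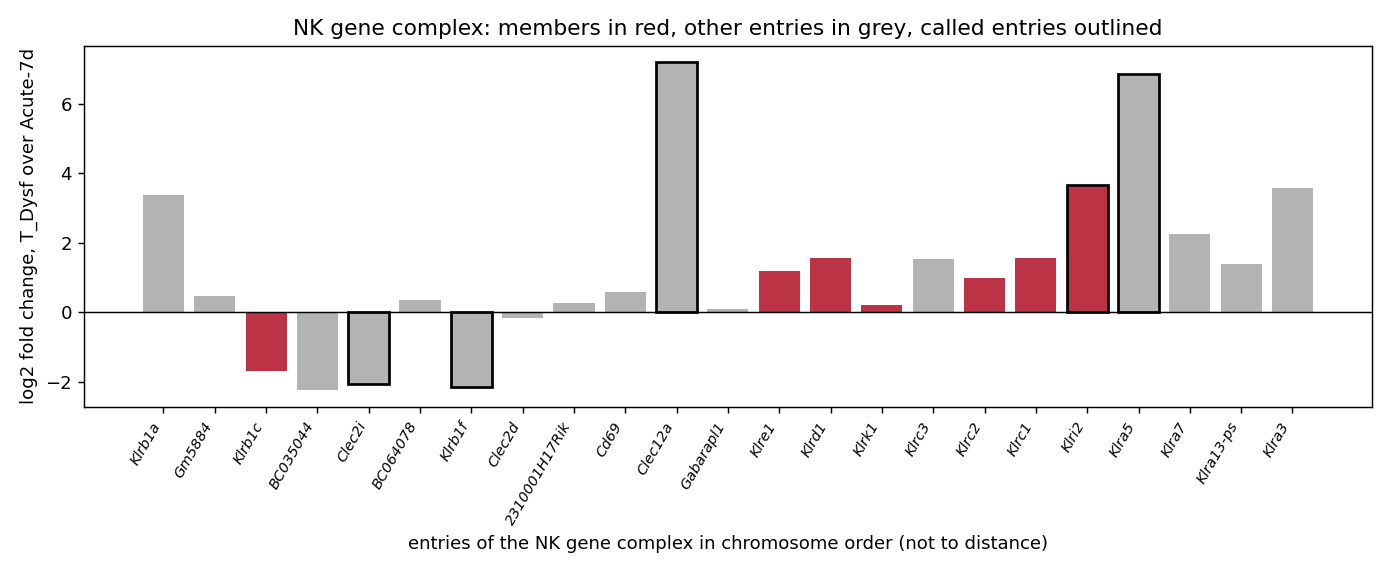
Log2 fold change between T_Dysf and Acute-7d (vertical axis) for the 23 entries of the NK gene complex that reached 50 normalized counts in a library, in chromosome order and not to distance; red bars are among the 10 genes, grey bars are other entries, and outlined bars are called. Clec12a (7.19) and Klra5 (6.86) are the tallest bars, and Clec2i (-2.05) and Klrb1f (-2.14) are outlined below 0.

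Of 40 other C-type lectin-like genes listed, 33 were in the table. In T_Dysf against Acute-7d 5 of these rose and 2 fell, beside 5.57% of all genes called, and their median log2 fold change was 1.05. Klra5, which encodes the Ly49E receptor, was at 1506 and 1222 in T_Dysf and at no more than 30.3 in the other 6 libraries (log2 fold change over Acute-7d 6.86 ± 1.06, limma adjusted p = 0.0273). Clec12a, an inhibitory receptor mostly known from myeloid cells, was at 640 and 732 in T_Dysf, at 113 and 46.1 in Effector, and at no more than 5.40 in both Acute conditions (7.19 ± 0.58, limma adjusted p = 0.00613). Klrh1 was at 56.1 and 25.8 in T_Dysf and at 0 in all 4 Acute libraries. Its T_Dysf mean was 12.2 times a floor of 3 reads per library in Acute-7d. Klrb1 was at 11.2 and 14.2 in T_Dysf, with a mean 3.80 times the same floor.

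Of 16 ligand genes 9 were in the table, and 1 was called against Acute-7d, beside 5.57% of all genes. The median log2 fold change over the 9 was -0.26. Clec2i, whose product is a ligand of the Klrb1 family, was at 355 and 372 in T_Dysf against 1566 and 1452 in Acute-7d, and fell by 2.05 on the log2 scale (SE 0.28, limma adjusted p = 0.0203). Klrb1f, of the complex, was at 23.3 and 28.5 in T_Dysf against 94.8 and 143 in Acute-7d (fell by 2.14, SE 0.27, limma adjusted p = 0.0171). In Acute-2d and Effector Clec2i was between 722 and 1878.

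Of the 32 genes listed as signalling partners, all in the table, 2 rose and 1 fell against Acute-7d, beside 5.57% of all genes called. The median log2 fold change was 0.13. Sh2d1b1, the gene of the SLAM-family adaptor EAT-2, was at 416 and 367 in T_Dysf and at no more than 37.4 elsewhere (log2 fold change 4.005 ± 0.514, limma adjusted p = 0.0176). Ptpn6, which encodes the phosphatase SHP-1 that inhibitory receptors such as NKG2A recruit, was at 6659 and 6961 in T_Dysf, 2824 and 3545 in Acute-7d, and 8381 and 8011 in Effector, so that it rose over Acute-7d (1.11 ± 0.13, limma adjusted p = 0.0139) but not over Effector. Vav2, an exchange factor downstream of activating receptors, was at 25.9 and 22.2 in T_Dysf and 72.5 and 94.9 in Acute-7d, and fell by 1.75 (SE 0.27, limma adjusted p = 0.0277). Of the kinases that bind ITAM adaptors, Zap70 was at 7806 and 7697 in T_Dysf and 5256 and 5221 in Acute-7d (log2 fold change 0.57, under the 2-fold minimum), while Syk was at 28.5 and 15.1 against 56.9 and 67.6, which was not called.

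NK receptors of other families moved in both directions. Of 26 listed, 25 were in the table, and 4 rose and 4 fell in T_Dysf against Acute-7d, beside 5.57% of all genes called. Their median log2 fold change was 0.17. Cd244a, which encodes the SLAM-family receptor 2B4, was at 4625 and 4737 in T_Dysf and at no more than 1071 elsewhere (2.93 ± 0.47, limma adjusted p = 0.0299). Tigit, an inhibitory receptor, was at 3097 and 2665 in T_Dysf and 425 and 351 in Acute-7d (2.89 ± 0.38, limma adjusted p = 0.0181). Slamf6, which encodes Ly108, was at 5.18 and 5.34 in T_Dysf and 142.8 and 143 in Acute-7d, and fell by 4.53 (SE 0.33, limma adjusted p = 0.00488). Ncr1, the gene of NKp46, a receptor typical of NK cells, was at 2.59 and 1.78 in T_Dysf, at or under 3 reads, and at 30.1 and 105 in Acute-7d, at least 25.3-fold lower in T_Dysf (limma adjusted p = 0.0343).

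Markers of other cell types were measured in the same libraries. Of 9 NK cell markers, 1 was called against Acute-7d (Ncr1, lower), beside 5.57% of all genes. Their summed level was between 1226 and 1582 in T_Dysf and between 229.7 and 737 elsewhere. Most of the T_Dysf sum came from Styk1 (848 and 720) and Klra7 (516 and 273), and 2 of the 9, Ncr1 and Klra4, were at or under 3 reads in both T_Dysf libraries. Itga2, the most abundant of the list in Effector and Acute-2d, was at 94.4 and 81.0 in T_Dysf, below all 6 others (129 to 328). Fcgr3 (83.7 and 90.7) and Klrb1b (32.4 and 42.5) were above all 6 others in T_Dysf. The 13 myeloid markers in the table summed to between 3734 and 3891 in T_Dysf and between 856 and 1842 elsewhere, which was Itgax for the most part (3306 and 3212 in T_Dysf), while Lyz2 was at 273 and 245 there and between 187 and 438 elsewhere. Cd14 was at 13.8 and 16.0 in T_Dysf, below all 6 others (25.7 to 56.7). None of the 13 was called against Acute-7d. Of 8 mast cell and basophil markers, whose cells also use Fcer1g, Fcer1a was at 0 in all 8 libraries, Ms4a2 at no more than 3.56, and Kit was at 1696 and 1363 in T_Dysf against 52.4 to 315 elsewhere. Cpa3 was at 126 and 122 in T_Dysf and between 25.1 and 235 elsewhere. Mcpt8 was at 28.5 and 36.5 in T_Dysf and between 4.01 and 97.9 elsewhere. Against Acute-7d Kit rose and Hdc fell. The 8 B cell markers summed to between 175 and 197 in T_Dysf and between 68.1 and 195 elsewhere. Cd79b, the most abundant, was at 136 and 115 in T_Dysf against 30.1 and 38.4 in Acute-7d, where it was called higher, and at 72.7 to 138 in the other 4 libraries. Cd79a (18.1 and 21.4) and Ebf1 (24.4 and 17.8) were above all 6 others in T_Dysf, while Ms4a1 was at no more than 2.59 there. Of the 3 gamma delta T cell markers in the table, Trdc was the most abundant, at 11389 and 8653 in T_Dysf and between 5302 and 9580 elsewhere. Sox13 went the other way, at 15.5 and 4.45 in T_Dysf, below all 6 others (20.1 to 109.5). Blk was at no more than 9.79 in any library. The 4 CD4 T cell markers summed to between 1083 and 1409 in T_Dysf and between 1058 and 1639 elsewhere. Most of this sum was Zbtb7b, at 1061 and 1385 in T_Dysf and between 1041 and 1625 elsewhere. Cd4 and Cd40lg were at no more than 13.04 in any library, and Foxp3 at no more than 49.5. None of the 4 was called in T_Dysf against Acute-7d. The part of other cells in the levels of the 10 genes was not tested.

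For each of the 9 genes with a mean of at least 50, the closest patterns over the 8 libraries were sought among 12027 genes, by the mean absolute difference of centred log2 values. Tyrobp and Fcer1g lay close to each other (0.31), and Tyrobp was closer still to Cd38 (0.22), an ectoenzyme that is high in exhausted CD8 T cells. Cd38 was also near Klri2 (0.40), after Litaf (0.39). Klrc1 was nearest to Spry2 (0.15), an inhibitor of receptor signalling, and Aoah (0.23), and Klre1 to Aoah (0.23) and Klrc1 (0.37). Klrk1 was nearest to Cobll1 (0.10) and Riox2 (0.17), Klrd1 to Mmp16 (0.12) and Sult2b1 (0.21), Klrc2 to Gem (0.26) and Kcnj8 (0.32), Klrb1c to Gspt2 (0.34) and Map6 (0.36), and Fcer1g after Tyrobp to Acvr1 (0.32). Among the 10 genes themselves the pair farthest apart was Klrg1 and Fcer1g (2.03).

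Every called gene kept its direction when any 1 library was left out, but the adjusted p did not stay under 0.05. For Fcer1g in T_Dysf against Acute-7d it lay on the log2 scale between 2.47 and 4.22 and the call held without either Acute-7d library, while without each of the other 6 the limma adjusted p was between 0.0600 and 0.144. For Klri2 over Acute-7d the call held without either Effector library and was lost without each of the other 6 (0.0961 to 0.201). Over Acute-2d, Klrc1, Klrc2 and Klri2 were lost without each library other than the Effector pair (0.0594 to 0.189), Fcer1g without either Acute-2d or either T_Dysf library (0.0668 to 0.0904), and Klre1 without either Acute-2d library or T_Dysf replicate 1 (0.0544 to 0.0955). Fcer1g over Effector was lost without each library other than the Acute-7d pair (0.0777 to 0.141). In Effector over Acute-2d Klrk1 was lost without either Acute-2d or either T_Dysf library (0.0587 to 0.0861) and Klre1 without each library other than Effector replicate 2 (0.0612 to 0.113).

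A term for the RESUB libraries could be fitted because Acute-7d holds 1 library of each kind, and it rests on the difference between those 2 libraries. With it, Fcer1g stayed called over Acute-7d (log2 fold change 2.47, limma adjusted p = 0.0268) and over Acute-2d (0.00602), and Klre1 over Acute-2d (0.0391). Tyrobp, not called in the main fit, was called over Acute-2d (log2 fold change 3.22, limma adjusted p = 0.0336). The other calls of the main fit were lost. Over Acute-7d the limma adjusted p of Klri2 was 0.201, over Acute-2d those of Klrc1, Klrc2 and Klri2 were 0.0595, 0.0917 and 0.0806, and over Effector that of Fcer1g was 0.189 with a log2 fold change of 1.12. In Effector over Acute-2d those of Klrk1 and Klre1 were 0.225 and 0.193, while Fcer1g passed (3.02, limma adjusted p = 0.0466).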

How the data were processed

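The members and gene lists were chosen with earlier results of these data known, and the partner ratios after values were seen. Reads were aligned by the authors to mm10 with STAR and quantified to RefSeq transcripts in Partek Flow. The deposited values are a signal, read counts per gene that the authors divided by DESeq2 median-ratio size factors. Under 1000 reads, between 51.0% and 74.9% of values were whole multiples of 1 read (tolerance 0.01 reads), so no count model was fitted. All 24303 genes and 8 libraries entered a single model (limma 3.58.1 in R 4.3.3, with a mean-variance trend) of log2 values after adding a pseudocount of 1, with 4 group means and no covariate. Tests were two-sided. The fit was tested on simulated data with known changes.

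Correlations of replicate differences ran from -0.199 to 0.197 over 6 pairs of conditions, 2 of them over 0.1, so replicate numbers were not taken as pairs. Named genes were the 10 members, up to 4 called genes with the largest change against Acute-7d per list, the 2 nearest patterns per member, and called entries of the NK gene complex. Outside this rule, Hcst, Klri1, Klrc3, H2-T23, Cdh1, Zap70, Syk and the marker genes were named after their values were seen. Alternatives were other pseudocounts, minimums, scalings, samples and covariates, and leaving out each library. Intervals are 95%. The minimum of 50 that the authors applied before normalization was not visible in the table, which holds lower genes. Positions came from GENCODE vM21 and promoters from RefSeq. Python 3.11.15, numpy 2.4.6, pandas 2.3.3, scipy 1.17.1 and matplotlib 3.10.9 were used.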

Additional observations from a re-analysis of the deposited data

How the results depend on the processing

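Of 1134 values of single genes under another setting, 953 kept their direction and their side of the threshold, 71 lost a call, 82 gained one and 28 changed sign, none of these 28 for a gene that was called. The count of the 10 genes called in T_Dysf against Acute-7d was 2, against 6 among genes with a mean of at least 50, 7 with a maximum of at least 50, 7 by unadjusted p, 1 with scaling to the 75th percentile, 1 with only the 2 groups in the fit, 1 with a term for the RESUB libraries, and between 0 and 3 when 1 library was left out. Against Acute-2d it was 5, against 8, 8 and 8 by the first 3 settings, 3 with the RESUB term, and between 0 and 7 without 1 library. Against Effector it was 1, against 6, 7 and 6 by the first 3 settings, 3 with a pseudocount of 10, 2 with quantile normalization, 0 with the RESUB term, and between 0 and 4 without 1 library. With the replicate block, that is with the replicate number as a covariate, it was 0 against Acute-7d and 0 against Effector, and it stayed within 1.5 times elsewhere; the numbers were not taken as pairs. In Acute-7d against Acute-2d 4 genes passed by unadjusted p, and 0 without any 1 library. In Effector against Acute-2d it was 0 with only the 2 groups, 1 with the RESUB term, and between 0 and 4 without 1 library. In Effector against Acute-7d it was 1 with either minimum of 50 or by unadjusted p, and between 0 and 1 without 1 library. The stricter minimums test fewer genes; the cause of the other shifts was not tested. Log2 fold changes that changed sign were those of Klrb1c in T_Dysf over Effector (0.0277 with scaling to the 75th percentile, 0.0160 with quantile normalization), Klrd1 in Acute-7d over Acute-2d (0.10), Klrb1c in Effector over Acute-2d (0.30) and Klrg1 in Effector over Acute-7d (0.11), these last 3 with the RESUB term. The genes whose sign turned when 1 library was left out are given with their lowest and highest log2 fold change over the libraries left out. In T_Dysf against Acute-2d they were Klrb1c (-0.76 to 0.40). In T_Dysf against Effector they were Klrb1c (-0.60 to 0.57). In Acute-7d against Acute-2d they were Klrd1 (-0.16 to 0.12), Klri2 (-0.18 to 0.32), Tyrobp (-0.72 to 1.12) and Fcer1g (-0.0762 to 1.67). In Effector against Acute-2d they were Klrd1 (-0.71 to 0.96), Klrc2 (-0.42 to 1.11) and Klrb1c (-0.75 to 0.42). In Effector against Acute-7d they were Klrg1 (-0.72 to 0.27), Klrd1 (-0.69 to 0.98), Klrc1 (-1.02 to 0.52), Klre1 (-0.27 to 0.73), Tyrobp (-0.60 to 1.24) and Fcer1g (-0.39 to 1.35). The exact p of Klrd1 over Klrc1 plus Klrc2 was between 0.00952 and 0.0190, that of Klrc1 over Klrc2 between 0.0190 and 0.0286, that of Klrk1 over Hcst between 0.0190 and 0.0571, and that of Klri2 over Klre1 between 0.0571 and 0.190 without 1 library. Values near the worth of 3 reads, such as those of Klrg1 in T_Dysf, are limited by depth.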
